A study of Homo sapiens with 12 samples.

Results

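The response of TC32 cells to 100 nM THZ531 was set against that of A673 cells, gene by gene. For each gene the change in A673 (100 nM minus DMSO) was subtracted from the change in TC32 (100 nM minus DMSO), so that a positive difference means that the TC32 change lay above the A673 change. The 4 groups were TC32 with 100 nM THZ531, TC32 with DMSO, A673 with 100 nM THZ531 and A673 with DMSO, each for 6 hours and each with 2 arrays that the labels call biological replicates. These are 8 of the 12 arrays of the series. The other 4 arrays, at 500 nM, were used only for levels set side by side. Members were the genes with a mean deposited log2 signal of at least 6 under DMSO in both lines, which held for 9505 of 16913 kept genes. The 100 nM values had no part in choosing them. USP2 (TC32 DMSO mean 6.001, difference -0.264) and ADAM8 (6.0015, 0.282) lay just inside that limit, and PPIP5K1 (5.9995, -0.161) and FOSL1 (5.999, 0.12) just outside it.

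THZ531 binds covalently to CDK12 and CDK13 and inhibits them. Both kinases pair with cyclin K and phosphorylate the C-terminal domain of RNA polymerase II during elongation. CDK12 is best known for keeping up the transcription of long genes and of DNA repair genes, whose transcripts otherwise end early at intronic polyadenylation sites. TC32 and A673 are established human lines of Ewing sarcoma, a bone and soft tissue tumour driven in most cases by EWS/FLI, a fusion of the transcription factor FLI1 with EWSR1. The comparison has 1 line on each side, so that the part of any property by which the lines differ cannot be told apart and was not tested. In bulk RNA from a culture, fewer cells with a transcript and less RNA per cell cannot be told apart either.

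Replicate arrays correlated across the tested genes between 0.9904 (A673 DMSO) and 0.9968 (TC32 DMSO), and their median absolute difference was 0.088 to 0.177 on the log2 scale. Centring each array on its median took a shift of -0.205 out of the TC32 change and of -0.619 out of the A673 change, 0.414 in their difference. Unless stated otherwise, levels are therefore log2 signals relative to the array median, and changes are relative to the middle gene. A gene described as rising a little in A673 can therefore have a negative change on the values as deposited. Of the 9 measured markers of Ewing sarcoma, all had deposited group means of at least 6.26, and the medians of this list were 10.7 to 11.1. The medians of the haematopoietic, epithelial, and endothelial and fibroblast marker lists lay between 5.07 and 6.28 in every group. Single members of these 3 lists had group means of up to 7.4, 7.76 and 8.09, above the lowest of the Ewing sarcoma markers. The neural list had medians of 5.78 to 6.60 and a highest group mean of 11.89 (TUBB3). Its members tested were SNAP25, SYP, GFAP and TUBB3, of which SNAP25, a synaptic vesicle fusion protein, had a called difference of 0.74 (adjusted p = 0.0427).

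THZ531 at 100 nM changed many genes in each line, and with arrays centred the change differed between the lines for a small share of them. Of the 9505 tested genes, 63 (0.663%) had a difference that was higher in TC32 and 134 (1.41%) one that was lower, by limma with Benjamini-Hochberg adjusted p under 0.05. Within TC32, 2648 genes rose (27.9%) and 2216 fell (23.3%), and within A673, 2150 rose (22.6%) and 1779 fell (18.7%). Across genes the changes in the lines, which share no array, correlated at 0.87, and their SD was 0.57 in TC32 and 0.461 in A673. Genes are not independent replicates, and this value describes these arrays only. As deposited, with the shift between the lines left in, 4628 genes had a higher difference and 73 a lower one. With arrays centred the median difference was -0.01, and 1356 genes had an unadjusted p under 0.05.

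**Figure D1:**
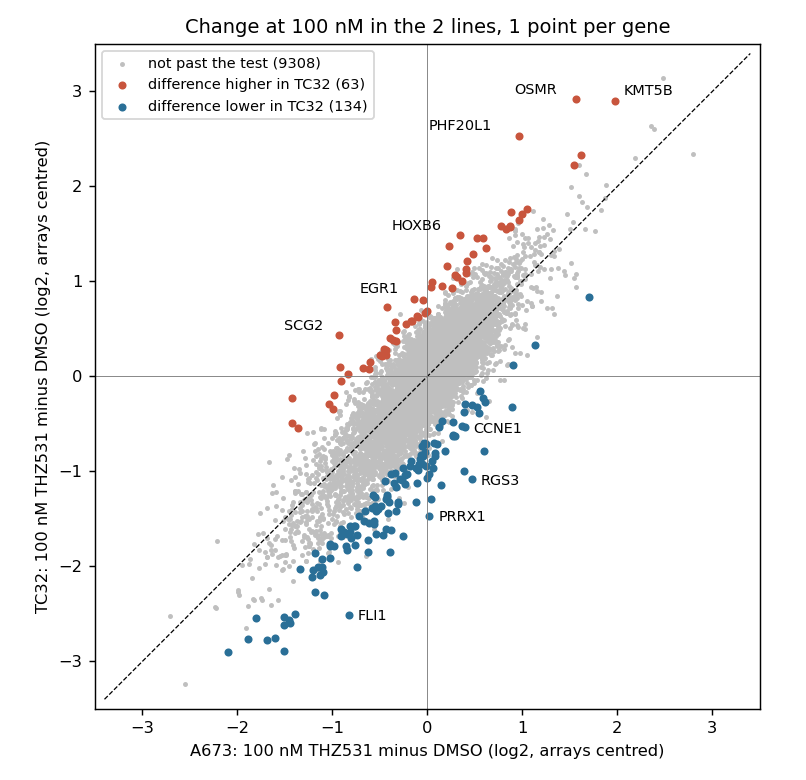
Change at 100 nM THZ531 against DMSO in TC32 (vertical axis) and in A673 (horizontal axis), both in log2 with arrays centred, with 1 point per tested gene and a dashed line of equal change. Red points are the 63 genes whose difference passed the test as higher in TC32 and blue points the 134 that passed as lower, and most of the blue points lie where both changes are below 0.

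With arrays centred, few called genes moved in opposite directions past the test in both lines, and in many only 1 line passed. As deposited 374 genes higher in TC32 and 0 lower ones had opposite calls. Among the 134 genes with a lower difference, 73 fell in both lines and fell further in TC32. Another 44 fell in TC32 and did not pass the test in A673, 9 rose in A673 and did not pass in TC32, 7 fell in TC32 and rose in A673, and 1 rose in both. Among the 63 genes with a higher difference, 23 rose in both lines, 17 rose in TC32 and did not pass in A673, 14 fell in A673 and did not pass in TC32, 6 rose in TC32 and fell in A673, and 3 fell in both. The median difference was -0.87 in the lower set and 0.77 in the higher set, and the changes of the lines differed by at least 2-fold for 37 and 8 genes. In all 134 and all 63 genes, every 100 nM array minus every DMSO array gave a change in TC32 beyond every such change in A673. These genes were picked by a test on the same arrays, so this adds no support. Genes that were not called could be apart in this way too, as CDK12 was (adjusted p = 0.334 by limma), and their share over all tested genes was not counted. In 37 of the 134 and 4 of the 63 a group mean lay under 6 as deposited, so that these fitted values give no ranking. Among the brightest 2376 tested genes 2 were called higher and 29 lower, against 14 and 24 among the dimmest 2377.

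The number of calls rested on single arrays. Leaving out an array leaves its group with 1, which is then assumed to vary like the other groups. Without replicate 1 or 2 of TC32 DMSO, 7 and 5 genes were called higher and 11 and 24 lower. Without replicate 1 or 2 of A673 at 100 nM, 13 and 13 were called higher and 38 and 43 lower. Without replicate 1 or 2 of TC32 at 100 nM the counts were 40 and 63 higher and 59 and 291 lower. Without replicate 1 or 2 of A673 DMSO they were 222 and 278 higher and 185 and 787 lower. The sign of the difference was kept for all 63 and all 134 genes whichever of the 8 arrays was left out. It could not have turned, since every TC32 change of these genes lay beyond every A673 change. Called without each of the 8 arrays in turn were 3 higher genes, PHF20L1, OSMR and HOXB6, and 11 lower genes: FLI1, RGS3, PRRX1, HOXC4, SOBP, DSN1, MGME1, NANOS1, BRD3, ADGRA1 and PAAF1. Of these, ADGRA1 and PAAF1 lie outside the naming rule and were picked after their values were seen.

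FLI1, the ETS transcription factor whose 3′ part makes up the fusion, had the lowest difference of all tested genes. Its level was -0.18 and 0.11 in TC32 at 100 nM, against 2.46 and 2.49 in TC32 with DMSO. In A673 it was 2.94 and 2.74 at 100 nM, against 3.53 and 3.80 with DMSO. The TC32 arrays at 100 nM thus stood well below all other arrays, while the A673 groups were apart by less than 1. The change was -2.51 ± 0.13 in TC32 and -0.82 ± 0.13 in A673 (SE, n = 2 against 2), and the difference was -1.69 ± 0.19 (adjusted p = 0.000221), a 3.22-fold deeper fall in TC32. The deposited mean in TC32 at 100 nM was 6.26, close to the signal limit of 6. As deposited FLI1 had changes of -2.72 in TC32 and -1.44 in A673 and a difference of -1.27 (adjusted p = 4.34e-05 by limma). A gene-level value does not tell the fusion transcript from full-length FLI1. EWSR1, the fusion's other partner, had changes of 0.41 ± 0.12 in TC32 and 0.40 ± 0.12 in A673 and a difference of 0.01 ± 0.16 (adjusted p = 0.989). As deposited, EWSR1 had changes of 0.20 in TC32 (adjusted p = 0.0608) and -0.22 in A673 (adjusted p = 0.0254), and its difference of 0.42 was then called (adjusted p = 0.0109).

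With arrays centred, several further genes fell more deeply in TC32 than in A673, and each of these calls held without any single array. BRD3, a bromodomain protein of the BET family that binds acetylated histones, had levels of 0.74 and 0.88 in TC32 at 100 nM, against 2.52 and 2.43 with DMSO. In A673 it had 2.64 and 2.60 at 100 nM, against 3.02 and 3.30 with DMSO, and its difference was -1.12 ± 0.17 (adjusted p = 0.00419). DSN1, a subunit of the MIS12 kinetochore complex, had 1.57 and 1.98 in TC32 at 100 nM, against 3.62 on both DMSO arrays. In A673, DSN1 had 3.47 and 3.35 at 100 nM, against 3.93 and 4.13 with DMSO, for a difference of -1.23 ± 0.19 (adjusted p = 0.00419). Both genes fell in both lines, and in each the TC32 groups were further apart than the A673 groups. As deposited the A673 changes of BRD3 and DSN1 were -1.16 and -1.24, and their differences -0.71 and -0.82.

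MGME1, an exonuclease of mitochondrial DNA maintenance, fell by 2.31 in TC32 and by 1.09 in A673, a difference of -1.22 ± 0.17 (adjusted p = 0.00198). SOBP fell by 1.62 in TC32 and by 0.39 in A673, a difference of -1.24 ± 0.17 (adjusted p = 0.00198). Its deposited mean was 6.12 in A673 at 100 nM, close to the signal limit of 6, which limits what a further fall there could show. NANOS1, an RNA-binding repressor of translation, had 0.90 and 1.05 in TC32 at 100 nM, against 2.33 and 2.25 with DMSO. In A673, NANOS1 had -0.37 and -0.17 at 100 nM, against -0.10 and -0.19 with DMSO, and there its groups overlapped. Its difference was -1.20 ± 0.17 (adjusted p = 0.00198), with a deposited mean of 6.31 in A673 at 100 nM, close to the signal limit of 6. As deposited the A673 changes of MGME1, SOBP and NANOS1 were -1.71, -1 and -0.74. Their deposited differences were -0.81, -0.82 and -0.79.

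**Figure D2:**
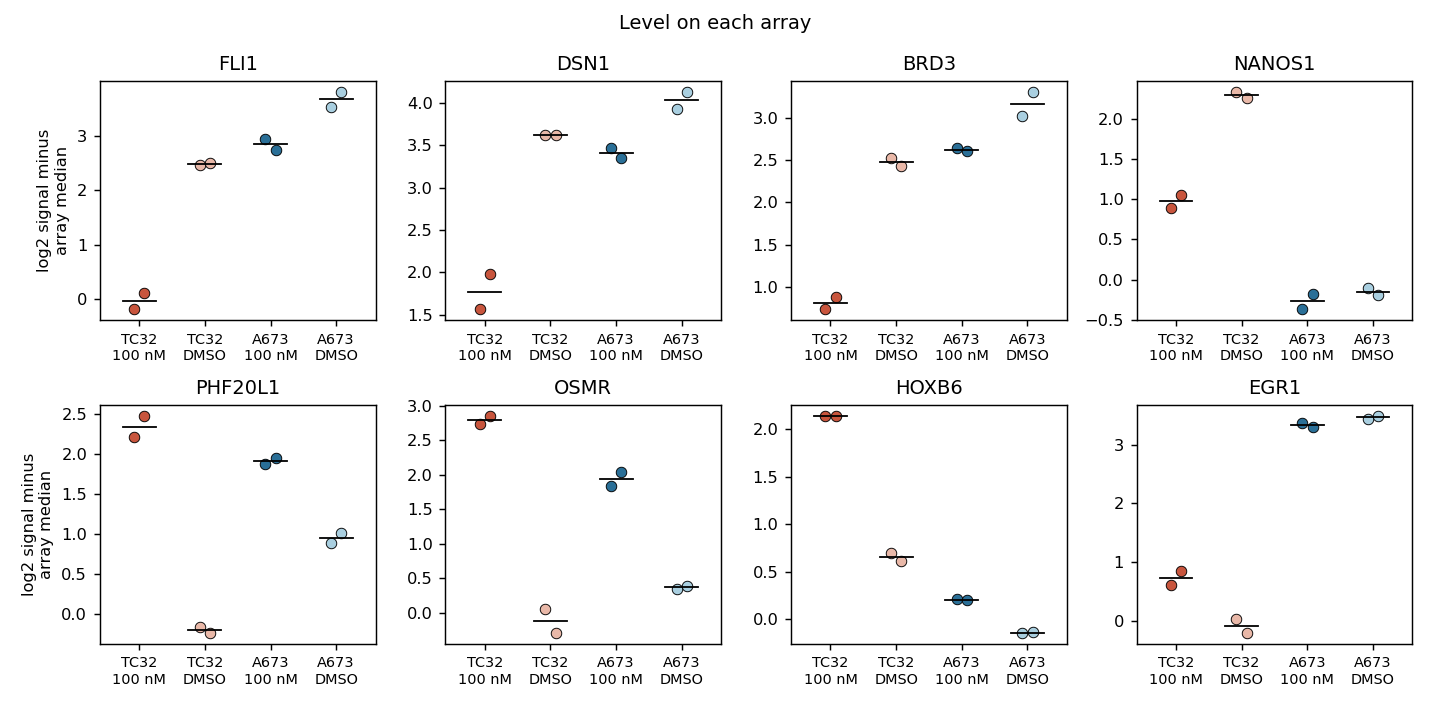
Level of 8 genes on each array (vertical axis, log2 signal minus the array median) for, from left to right, TC32 at 100 nM, TC32 with DMSO, A673 at 100 nM and A673 with DMSO. Points are arrays and bars are group means. In FLI1, DSN1 and BRD3 the TC32 arrays at 100 nM lie below every other array, and in OSMR and HOXB6 they lie above every other array.

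Other genes with a lower difference had calls that depended on 1 or more arrays. ESPL1 (separase, the protease that opens cohesin at anaphase) fell by 1.67 in TC32 and by 0.47 in A673, a difference of -1.20 ± 0.21 (adjusted p = 0.0089). OIP5, which helps load the centromeric histone CENP-A, fell by 1.73 in TC32 and by 0.63 in A673, with a difference of -1.10 ± 0.19. KCNE3, an accessory subunit of potassium channels, fell by 2.27 in TC32 and by 1.19 in A673, with a difference of -1.09 ± 0.18. Without TC32 DMSO replicate 1 these 3 calls ended, with adjusted p of 0.0722, 0.0685 and 0.0657. METTL23, a protein methyltransferase, fell by 2.56 in TC32 and by 1.46 in A673, with a difference of -1.11 ± 0.20. Its call ended without A673 100 nM replicate 1 (adjusted p = 0.0506) and without either TC32 DMSO array (adjusted p = 0.0559 and 0.0694).

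With arrays centred, SLC25A24 fell in TC32 and did not pass the test in A673, and APP rose in A673 and did not pass in TC32. SLC25A24, a carrier of adenine nucleotides in the inner mitochondrial membrane, had 1.83 and 2.42 in TC32 at 100 nM, against 3.27 and 3.26 with DMSO. In A673 it had 3.65 and 3.59 at 100 nM, against 3.13 and 3.81 with DMSO, so that only the TC32 groups were apart. Its difference was -1.29 ± 0.27 (adjusted p = 0.02), and its call ended without either A673 100 nM array or either TC32 DMSO array (adjusted p = 0.0542 to 0.0963). APP, the amyloid precursor protein, had a change of -0.32 ± 0.20 in TC32 (adjusted p = 0.186) and rose by 0.89 ± 0.20 in A673, with a difference of -1.21 ± 0.28 (adjusted p = 0.0363). Its 2 TC32 arrays at 100 nM were 4.42 and 5.15, and its call ended without A673 100 nM replicate 2, either TC32 DMSO array or TC32 100 nM replicate 1 (adjusted p = 0.0783 to 0.158). With robust variances the calls of SLC25A24 and APP ended (adjusted p = 0.131 and 0.354), and that of APP also with no intensity trend (adjusted p = 0.0703). As deposited, SLC25A24 also fell in A673, by 0.47 (adjusted p = 0.00316), while APP fell by 0.53 in TC32 (adjusted p = 0.00399) and had a change of 0.27 in A673 (adjusted p = 0.0855).

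RGS3, PRRX1 and RDH10 stand for the called lower genes with a group mean under 6 as deposited, whose fitted differences give no order. RGS3, a regulator of G protein signalling, had -0.27 and -0.42 in TC32 at 100 nM, against 0.79 and 0.69 with DMSO. In A673, RGS3 had 1.63 and 1.64 at 100 nM, against 1.16 and 1.18 with DMSO, so that the 2 lines moved in opposite directions relative to the array medians. The difference was -1.55 ± 0.16 (adjusted p = 0.000221). PRRX1, a mesenchymal homeobox factor, had 2.92 and 3.17 in TC32 at 100 nM, against 4.53 and 4.50 with DMSO. Its A673 arrays lay between -1.32 and -0.98, with a deposited mean of 5.43 at 100 nM, so that a fall there could hardly have been measured. Its fitted difference was -1.49 ± 0.19 (adjusted p = 0.00084). RDH10, a retinol dehydrogenase, fell by 1.84 in TC32 and had a change of -0.39 ± 0.18 in A673 (adjusted p = 0.0985). Its difference was -1.45 ± 0.26, and its call ended without TC32 DMSO replicate 1 (adjusted p = 0.0722).

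Of the genes that rose more in TC32, 3 were called without each array in turn. PHF20L1, a Tudor domain reader of methylated lysine, had 2.21 and 2.48 in TC32 at 100 nM, against -0.15 and -0.23 with DMSO. In A673 it had 1.88 and 1.96 at 100 nM, against 0.89 and 1.01 with DMSO. The lines were thus closer in level at 100 nM than with DMSO, and TC32 was the lower line with DMSO and the higher at 100 nM. The difference was 1.57 ± 0.17 (adjusted p = 0.000221), the highest of all tested genes. OSMR, the receptor subunit for oncostatin M, had 2.74 and 2.86 in TC32 at 100 nM, against 0.06 and -0.29 with DMSO. In A673, OSMR had 1.84 and 2.04 at 100 nM, against 0.35 and 0.40 with DMSO, for a difference of 1.35 ± 0.18 (adjusted p = 0.00196). HOXB6, a homeobox factor of the HOXB cluster, had 2.14 on both TC32 arrays at 100 nM, against 0.69 and 0.61 with DMSO. It had 0.21 and 0.20 in A673 at 100 nM, against -0.14 on both DMSO arrays, for a difference of 1.14 ± 0.16 (adjusted p = 0.00198).

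KMT5B, a methyltransferase of histone H4 lysine 20, rose by 2.90 ± 0.12 in TC32 and by 1.98 ± 0.12 in A673, a difference of 0.93 ± 0.17 (adjusted p = 0.0104). TNFRSF10D, a decoy receptor for the death ligand TRAIL, rose by 1.45 in TC32 and by 0.52 in A673, with a difference of 0.94 ± 0.16 (adjusted p = 0.0089). FIP1L1, a subunit of the cleavage and polyadenylation factor CPSF, rose by 1.37 in TC32 and had a change of 0.23 in A673 (adjusted p = 0.314). PRPF38B, a spliceosome-associated protein, rose by 1.16 in TC32 and had a change of 0.21 in A673 (adjusted p = 0.18). Their differences were 1.14 ± 0.25 (adjusted p = 0.0253) and 0.96 ± 0.17 (adjusted p = 0.0089). The call ended for PRPF38B without TC32 DMSO replicate 2 (adjusted p = 0.0832) and for TNFRSF10D without either TC32 DMSO array (adjusted p = 0.0586 and 0.0702). For KMT5B it ended without A673 100 nM replicate 1 or either TC32 DMSO array (adjusted p = 0.0722 to 0.0858). FIP1L1 lost its call without either A673 100 nM array, TC32 DMSO replicate 1 or TC32 100 nM replicate 1 (adjusted p = 0.0674 to 0.175), and also with arrays centred on the tested genes, after quantile normalisation and with robust variances (adjusted p = 0.0841, 0.0847 and 0.0892).

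Higher differences also came from genes that fell in A673. SCG2, the secretory granule protein secretogranin II, had 4.75 and 5.08 in TC32 at 100 nM, against 4.63 and 4.33 with DMSO. In A673, SCG2 had 0.06 and 0.03 at 100 nM, against 0.68 and 1.28 with DMSO, so that it rose in TC32 and fell in A673, at very different levels. Its difference was 1.37 ± 0.24 (adjusted p = 0.0089), and its call ended without TC32 DMSO replicate 2 (adjusted p = 0.0673). With a group mean under 6, CBLB (a ubiquitin ligase), ZNF85 (a KRAB zinc finger gene) and DGKG (a diacylglycerol kinase) had fitted differences of 1.21, 1.02 and 0.94. In TC32 the change of CBLB was -0.22 (adjusted p = 0.237) and that of ZNF85 0.10 (adjusted p = 0.614), and DGKG fell by 0.49, while in A673 the 3 genes fell by 1.43, 0.92 and 1.43. The 3 calls ended without A673 100 nM replicate 2 or either TC32 DMSO array, for ZNF85 and DGKG also without TC32 100 nM replicate 1, and for DGKG also without A673 100 nM replicate 1 (adjusted p = 0.0511 to 0.163).

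**Figure D3:**
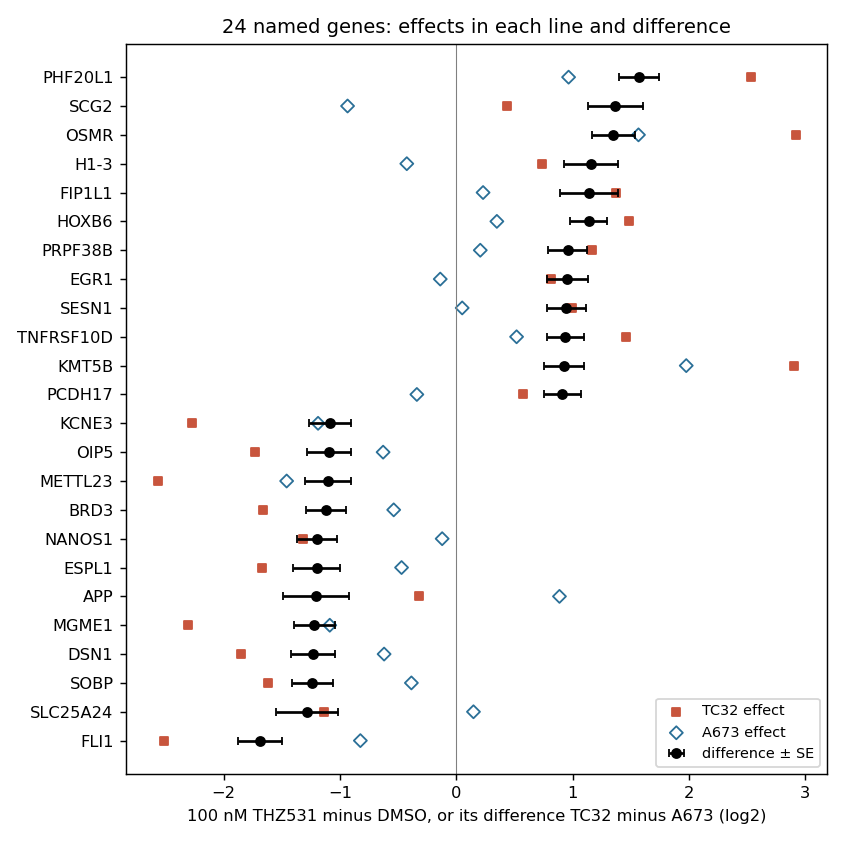
Change at 100 nM THZ531 against DMSO (log2, arrays centred) in TC32 (red squares) and A673 (blue open diamonds), with their difference and its SE (black), for the 12 highest and 12 lowest differences among called genes with all group means at least 6. FLI1 lies at the bottom with -1.69 and PHF20L1 at the top with 1.57.

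Opposite directions in the lines, each past its own test, were found for 6 genes higher and 7 lower in TC32. Higher in TC32 and lower in A673 were SCG2, H1-3 (a linker histone, changes of 0.73 in TC32 and -0.43 in A673), PCDH17 (a protocadherin, 0.57 and -0.34), IRX3 (an Iroquois homeobox factor, 0.40 and -0.40), BAZ1A (a chromatin remodelling subunit, 0.38 and -0.37) and EPHA2, given below. Lower in TC32 and higher in A673 were RGS3, H2AC11 (a histone H2A, -0.78 in TC32 and 0.60 in A673), HOXC4 (a homeobox factor, -0.99 and 0.39), CCNE1 (-0.54 and 0.39), DCLRE1A (a nuclease of crosslink repair, -0.52 and 0.37), TNC and CCT6A. The split into rise and fall depended on the scaling. On the values as deposited, the A673 changes of RGS3, H2AC11, HOXC4, CCNE1 and DCLRE1A were -0.15, -0.02, -0.23, -0.23 and -0.25. Of the 13 genes, 2 higher and 0 lower ones kept opposite calls as deposited, while 5 and 7 kept them with arrays centred on the tested genes and 3 and 3 after quantile normalisation. The differences themselves kept their sign under these scalings for the genes named here. HOXC4 and RGS3 were called without each array in turn, and the other calls ended without 1 or more arrays, as follows. H2AC11 lost its call without either TC32 DMSO array (adjusted p = 0.0722 and 0.0781), and CCNE1, DCLRE1A, IRX3, H1-3, PCDH17 and BAZ1A without TC32 DMSO replicate 1 or 1 or both A673 100 nM arrays (adjusted p = 0.05 to 0.181). All of these but PCDH17 also lost it without TC32 DMSO replicate 2, and BAZ1A without TC32 100 nM replicate 2. The deposited group mean was under 6 for RGS3, for H2AC11 (lowest mean 5.32) and for HOXC4 (5.63). Histone genes are near-identical copies, so the values of H1-3 and H2AC11 may hold signal of other histone genes.

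EGR1, a zinc finger factor of the immediate-early response that is driven through ERK and serum response factor, stood at different levels in the lines and changed differently. It had 0.62 and 0.85 in TC32 at 100 nM, against 0.04 and -0.20 with DMSO. In A673 it had 3.36 and 3.29 at 100 nM, against 3.44 and 3.49 with DMSO. EGR1 thus rose in TC32, by 0.82 ± 0.12, and had a change of -0.14 ± 0.12 in A673 (adjusted p = 0.391). The difference was 0.95 ± 0.17 (adjusted p = 0.00925). As deposited EGR1 fell in A673, with a change of -0.76 (adjusted p = 1.05e-05 by limma). Its call ended without A673 100 nM replicate 2 (adjusted p = 0.0542) and without TC32 DMSO replicate 2 (adjusted p = 0.0959).

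Serum response factor binds the CArG box, and the 250 bases before the start of EGR1 are shown because they hold 2 such boxes, in capitals. The matching window of NR2F1, a nuclear receptor chosen after its value was seen, is the only other one with a CArG box among the called higher genes. Sequences are from RefSeq on GRCh38.p14, plus strand, at chr5:138465229-138465478 for EGR1 and chr5:93582972-93583221 for NR2F1.
EGR1: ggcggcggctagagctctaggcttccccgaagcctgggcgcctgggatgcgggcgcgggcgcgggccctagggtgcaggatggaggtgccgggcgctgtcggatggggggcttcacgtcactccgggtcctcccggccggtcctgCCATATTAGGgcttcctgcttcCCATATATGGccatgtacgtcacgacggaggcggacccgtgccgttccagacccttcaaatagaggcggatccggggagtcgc
NR2F1: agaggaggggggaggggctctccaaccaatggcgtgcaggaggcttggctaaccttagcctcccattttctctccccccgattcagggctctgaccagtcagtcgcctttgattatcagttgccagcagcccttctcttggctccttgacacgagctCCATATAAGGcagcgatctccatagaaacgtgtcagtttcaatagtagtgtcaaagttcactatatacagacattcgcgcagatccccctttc
Both strands were searched. NR2F1 had a change of 0.80 in TC32 and -0.05 in A673 and a fitted difference of 0.85 ± 0.20 (adjusted p = 0.0363), with a lowest group mean of 5.78 as deposited. Its call ended without either A673 100 nM array, either TC32 DMSO array or TC32 100 nM replicate 1 (adjusted p = 0.0676 to 0.252). A CArG box stood in 2 of 49 windows of called higher genes (4.08%), in 0 of 109 windows of called lower genes and in 81 of 7929 windows of all tested genes with a promoter in the RefSeq table (1.02%). A match is a description of these letters and not of a bound site.

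Immediate-early genes as a whole rose in both lines and differed little between them with arrays centred. Of 37 tested members of this list (47 listed), 33 rose in TC32, and in A673 30 rose and 1 fell. The difference was called higher for 2 (EGR1 and IER5) and lower for 0, and its median was -0.02, against -0.01 over all tested genes. IER5, an immediate-early regulator, rose by 1.76 in TC32 and by 1.05 in A673, a difference of 0.71 ± 0.16 (adjusted p = 0.0302), which ended without either A673 100 nM array or either TC32 DMSO array (adjusted p = 0.107 to 0.178). JUN, a component of AP-1, had the lowest difference of the list, -0.67 (adjusted p = 0.136). Among 14 tested ERK targets and feedback genes (23 listed), the difference was called higher for 2, EGR1 and EPHA2, and lower for 0, with a median of 0.10. The shares over all tested genes were 0.663% called higher and 1.41% called lower. EPHA2, an ephrin receptor, had 0.97 and 1.20 in TC32 at 100 nM, against 0.67 and 0.75 with DMSO. In A673, EPHA2 had 2.33 and 2.35 at 100 nM, against 2.55 and 2.79 with DMSO, for a difference of 0.70 ± 0.17 (adjusted p = 0.0423). That call ended without either A673 100 nM array, either TC32 DMSO array or TC32 100 nM replicate 2 (adjusted p = 0.0848 to 0.238).

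The list of p53 targets, genes of growth arrest, apoptosis and repair that are induced after damage, lay mostly above 0. Of 23 tested members (30 listed), 18 had a positive and 5 a negative difference, with a median of 0.23. Over all tested genes 4537 differences were positive and 4957 negative, with a median of -0.01. The test called 3 members higher, against 0.663% of all tested genes, and 0 lower. In TC32, 12 members rose and 4 fell, and in A673, 6 rose and 6 fell. SESN1, a sestrin of the stress response, had 1.78 and 1.88 in TC32 at 100 nM, against 0.84 and 0.83 with DMSO. In A673, SESN1 had -0.01 and 0.09 at 100 nM, against 0.06 and -0.08 with DMSO, where the groups overlapped. Its difference was 0.95 ± 0.17 (adjusted p = 0.0089). As deposited SESN1 fell in A673, with a change of -0.57 (adjusted p = 0.00127 by limma).

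MDM2, a ubiquitin ligase, had 1.62 and 1.63 in TC32 at 100 nM, against 0.90 and 1.08 with DMSO. In A673, MDM2 had 1.42 and 1.33 at 100 nM, against 1.30 and 1.68 with DMSO, and these groups overlapped. Its difference was 0.75 ± 0.18 (adjusted p = 0.0408). As deposited MDM2 fell in A673, with a change of -0.73 (adjusted p = 1.44e-05 by limma). GADD45A, a growth arrest gene, rose in both lines, by 1.58 in TC32 and by 0.86 in A673, with a difference of 0.71 ± 0.16 (adjusted p = 0.0326). The lowest difference of the list was that of BAX, a pro-apoptotic BCL2 family member, at -0.30 (adjusted p = 0.493). With the values as deposited 19 members were called higher, as were 4628 of the 9505 tested genes, with arrays centred on the tested genes 4, and after quantile normalisation 6, with 0 lower under each. The call of SESN1 ended without either TC32 DMSO array (adjusted p = 0.0722 and 0.0673), and those of MDM2 and GADD45A ended without either TC32 DMSO array or either A673 100 nM array, for MDM2 also without TC32 100 nM replicate 1 (adjusted p = 0.0815 to 0.252). The call of MDM2 also ended with all 12 arrays in the fit, with no filter on signal and with no intensity trend (adjusted p = 0.0518, 0.0542 and 0.0564).

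**Figure D4:**
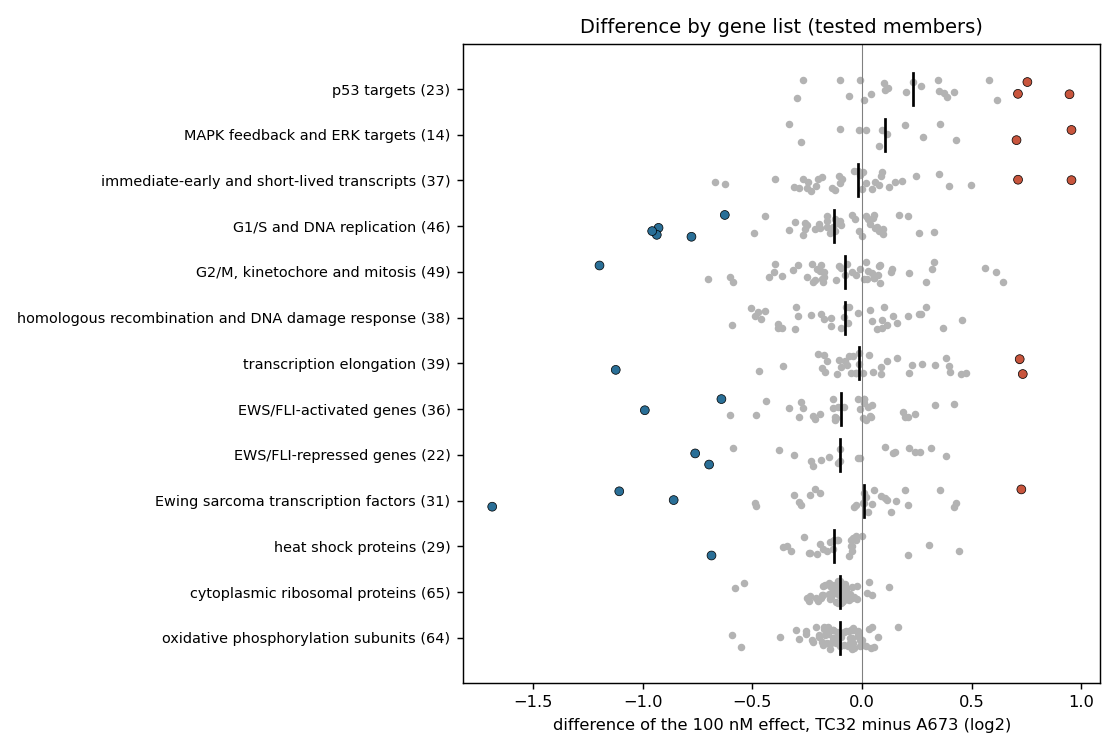
Difference of the 100 nM effect, TC32 minus A673 (horizontal axis, log2, arrays centred), for the tested members of 13 gene lists, with the number of members in brackets. Points are genes, red and blue where the difference passed the test as higher or lower and grey elsewhere, and black bars are list medians. The bar of the p53 targets lies at 0.23 and those of the other lists between -0.13 and 0.10.

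Genes of S phase entry and DNA replication held 5 called members with arrays centred, each lower in TC32, where 1.41% of all tested genes were called lower. Of 46 tested members (54 listed), 31 had a negative difference, as had 4957 of the 9505 tested genes, the median was -0.13, and 0 were called higher. As deposited the median was 0.28, and 19 members were called higher and 4 lower. CCNE2 and CCNE1 encode the E cyclins, which activate CDK2 at the G1/S transition. CCNE2 had 1.25 and 1.47 in TC32 at 100 nM, against 2.31 and 2.30 with DMSO. In A673, CCNE2 had 0.35 and 0.44 at 100 nM, against 0.30 and 0.50 with DMSO, so that it fell in TC32 and its A673 groups overlapped. Its difference was -0.94 ± 0.17 (adjusted p = 0.00925). CCNE1 had 0.50 and 0.75 in TC32 at 100 nM, against 1.20 and 1.13 with DMSO. In A673, CCNE1 had 1.73 and 1.88 at 100 nM, against 1.34 and 1.49 with DMSO, and its difference was -0.93 ± 0.17 (adjusted p = 0.0104). With arrays centred, both cyclins were thus lower in TC32 at 100 nM than with DMSO and were not lower in A673. As deposited CCNE2 fell in A673 too, with a change of -0.63 (adjusted p = 8.45e-05 by limma). The deposited A673 change of CCNE1 was -0.23 (adjusted p = 0.0829).

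GINS1, a subunit of the replicative helicase, fell by 2.09 in TC32 and by 1.13 in A673 (difference -0.96 ± 0.17, adjusted p = 0.0089). PRIM1, the catalytic subunit of primase, fell by 1.68 in TC32 and by 0.91 in A673 (difference -0.78 ± 0.16, adjusted p = 0.0177). RRM2, a subunit of ribonucleotide reductase, fell by 0.47 in TC32 and had a change of 0.15 in A673 (adjusted p = 0.231), with a difference of -0.63 ± 0.14 (adjusted p = 0.0277). The 5 calls ended without either TC32 DMSO array and without 1 or both A673 100 nM arrays, for RRM2 also without TC32 100 nM replicate 1 (adjusted p = 0.0542 to 0.174). The calls of CCNE1, CCNE2, GINS1 and PRIM1 held on the values as deposited, while that of RRM2 did not (adjusted p = 0.124). In the 250 bases before the start, 1 of the E2F words TTTCCCGC, TTTCGCGC, TTTGCCGC and TTTGGCGC, on either strand, stood in 15 of 39 windows of this list (38.46%), and in 0 of the windows of CCNE1, GINS1, PRIM1 and RRM2. It stood in 5 of 109 windows of called lower genes (4.59%), 2 of 49 windows of called higher genes (4.08%) and 378 of 7929 windows of all tested genes (4.77%).

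Lists of later cell cycle stages and DNA repair held few calls with arrays centred, as did all tested genes (0.663% higher and 1.41% lower). Of 49 tested genes of G2/M, kinetochore and mitosis, 1 was called lower (ESPL1) and 0 higher, although in TC32 25 fell and 9 rose and in A673 20 fell and 8 rose. INCENP, a subunit of the chromosomal passenger complex, had the highest difference of that list, 0.64 (adjusted p = 0.0547). None of 38 tested genes of homologous recombination and the DNA damage response was called in either direction by limma (2 positive and 6 negative at an unadjusted p under 0.05), while 21 fell and 3 rose in each line. Their median change was -0.46 in TC32 and -0.40 in A673, and their differences lay between -0.59 and 0.45. Centrosome genes were alike in this respect, with 0 of 40 called by limma (1 positive and 5 negative at an unadjusted p under 0.05), 22 fallen in TC32 and 20 in A673. As deposited, 16 of the 38 repair genes and 21 of the 40 centrosome genes were called higher and 0 lower. The G2/M list then had 26 called higher and 1 lower, beside 4628 and 73 of all tested genes. With arrays centred on the tested genes, 3 repair genes and 2 centrosome genes were called lower and 0 higher. Of 17 genes of the E2F and RB family, E2F7, an atypical E2F repressor, was the 1 called lower, with a difference of -0.83 (adjusted p = 0.0226), which ended without A673 100 nM replicate 1, either TC32 DMSO array or TC32 100 nM replicate 1 (adjusted p = 0.0628 to 0.135) and as deposited (adjusted p = 0.0514).

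Among genes of transcription and RNA processing, called differences with arrays centred were few in each list. Over all tested genes the shares called were 0.663% higher and 1.41% lower. Of 39 tested elongation genes, 2 were called higher and 1, BRD3, lower. At an unadjusted p under 0.05 by limma, 8 of the 39 were positive and 1 negative, beside 567 and 789 of all 9505 tested genes. As deposited 27 of the 39 were called higher and 1 lower. CCNT1, the cyclin of the elongation kinase P-TEFb, rose by 1.04 in TC32 and had a change of 0.31 in A673 (adjusted p = 0.0524), with a difference of 0.73 ± 0.17. HEXIM1, which holds P-TEFb inactive, had 4.56 and 4.85 in TC32 at 100 nM, against 3.11 and 2.87 with DMSO. In A673, HEXIM1 had 3.31 and 3.24 at 100 nM, against 2.25 and 2.31 with DMSO, for a difference of 0.72 ± 0.18 (adjusted p = 0.0431). Of 32 genes of 3′ end processing, FIP1L1 and RBBP6, a polyadenylation-associated ubiquitin ligase (0.73 ± 0.17), were called higher. ZC3H4, a factor that ends noncoding transcription, was called lower and fell in both lines, by 2.90 in TC32 and by 2.10 in A673. Its difference was -0.80 ± 0.18, and -0.38 with an adjusted p of 0.0542 on the values as deposited.

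INTS2 was called lower among 12 Integrator subunits, with levels of -0.82 and -0.28 in TC32 at 100 nM, against 1.55 and 1.38 with DMSO. In A673, INTS2 had 1.42 and 1.44 at 100 nM, against 1.99 and 2.36 with DMSO, and the fitted difference of -1.27 ± 0.22 (adjusted p = 0.0089) includes a TC32 group mean of 5.75 as deposited. Of the 12 subunits, INTS2 included, 8 fell in TC32 and 9 in A673. MED29 was called lower among 31 Mediator and CDK7 module genes (-0.81 ± 0.18, adjusted p = 0.0281, and 0.0789 as deposited). With arrays centred, limma called none of 12 subunits of RNA polymerase II in either direction, and 0 had an unadjusted p under 0.05. As deposited 8 of the 12 were called higher and 0 lower. PRPF38B was the 1 called among 39 splicing genes, and NOC2L, a nucleolar factor (0.81 ± 0.18, adjusted p = 0.0261), the 1 called among 43 genes of ribosome biogenesis. At an unadjusted p under 0.05 by limma, 3 splicing genes were positive and 3 negative, and 5 and 2 genes of ribosome biogenesis. Among 21 genes of H3K4 and H3K36 methyltransferases KMT2A (0.64) was called higher and WDR5, a subunit of H3K4 methyltransferase complexes (-0.83), lower. The call of INTS2 ended without TC32 DMSO replicate 1 (adjusted p = 0.0722). Those of CCNT1, HEXIM1, RBBP6, ZC3H4, MED29, NOC2L, KMT2A and WDR5 ended without either TC32 DMSO array and 1 or both A673 100 nM arrays, for 7 of them also without a TC32 100 nM array (adjusted p = 0.0645 to 0.29).

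With arrays centred, the targets of THZ531 themselves had no called difference, and as deposited both did. CDK12 had 1.76 and 1.90 in TC32 at 100 nM, against 1.32 and 1.24 with DMSO, and in A673 1.20 and 1.52 at 100 nM, against 1.17 and 1.23 with DMSO. It rose in TC32, and its difference was 0.38 ± 0.18 (adjusted p = 0.334). CDK13 had a change of -0.08 in TC32 (adjusted p = 0.666) and fell by 0.80 in A673, with a difference of 0.71 ± 0.22 (adjusted p = 0.113). Cyclin K (CCNK) rose by 0.33 in TC32 and by 0.40 in A673, with a difference of -0.08 ± 0.16 (adjusted p = 0.873). MYC, the proto-oncogene transcription factor, rose by 0.58 in TC32 and by 0.56 in A673, with a difference of 0.02 ± 0.15 (adjusted p = 0.975). As deposited, CDK12 had a difference of 0.79 (adjusted p = 0.00229) and CDK13 one of 1.13 (adjusted p = 0.000672). As deposited, MYC had changes of 0.38 in TC32 and -0.06 in A673 and a difference of 0.43 (adjusted p = 0.00624). The interval of a difference at this number of arrays is wide, with a median SE of 0.175 over all tested genes, so these values do not show that the lines acted alike. The difference of CDK13 was called without replicate 1 (adjusted p = 0.00515) or 2 (adjusted p = 0.0363) of A673 DMSO and without replicate 1 of TC32 at 100 nM (adjusted p = 0.0171), and also with the replicate number as a block (adjusted p = 0.0182).

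Of 31 tested transcription factors of Ewing sarcoma, 4 had a called difference with arrays centred. Among all tested genes 0.663% were called higher and 1.41% lower. Lower in TC32 were FLI1, PAX7 and ELK3, and SOX6 was higher. PAX7, a paired box factor, had 1.10 and 1.40 in TC32 at 100 nM, against 3.93 and 3.81 with DMSO. In A673, PAX7 had -0.68 and -0.57 at 100 nM, against 0.88 and 0.90 with DMSO, with a deposited mean of 5.95 there. It fell in both lines, with a fitted difference of -1.11 ± 0.17 (adjusted p = 0.00439). ELK3, an ETS factor, fell by 0.92 in TC32 and had a change of -0.06 in A673 (adjusted p = 0.756), with a difference of -0.86 ± 0.20 (adjusted p = 0.0363). SOX6, an SRY-box factor, had a change of 0.22 in TC32 (adjusted p = 0.116) and fell by 0.50 in A673, with a difference of 0.73 ± 0.16 (adjusted p = 0.0302). The median of the list was 0.01. The call of PAX7 ended without TC32 DMSO replicate 1 (adjusted p = 0.0548), and those of ELK3 and SOX6 without either A673 100 nM array, either TC32 DMSO array or 1 TC32 100 nM array (adjusted p = 0.0552 to 0.191).

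Genes known to be activated or repressed by EWS/FLI were called in similar numbers with arrays centred. For comparison, 1.41% of all tested genes were called lower and 0.663% higher. Of 36 tested activated genes, KIAA1671 (-0.99, with a lowest group mean of 5.22 as deposited) and PAPPA, a protease of IGF-binding proteins (-0.64), were called lower and 0 higher, with a median of -0.09. Of 22 tested repressed genes, TNC, the matrix protein tenascin C, and CD44, a hyaluronan receptor, were called lower and 0 higher, with a median of -0.10. TNC had 3.53 and 3.79 in TC32 at 100 nM, against 4.05 and 4.02 with DMSO, and in A673 4.35 and 4.38 at 100 nM, against 3.965 and 3.995 with DMSO. It fell in TC32 and rose in A673, with a difference of -0.76 ± 0.16 (adjusted p = 0.0192). CD44 fell by 0.71 in TC32 and had a change of -0.01 in A673, with a difference of -0.70 ± 0.17 (adjusted p = 0.0413). Among 29 collagen, matrix and mesenchymal genes the 2 called lower were TNC and SNAI2, a repressor of epithelial genes, which had a change of 0.12 in TC32 (adjusted p = 0.418) and rose by 0.91 in A673, for a difference of -0.78 ± 0.17. On the values as deposited CD44, PAPPA and SNAI2 were no longer called (adjusted p = 0.138, 0.148 and 0.0682). The 5 calls of this paragraph ended without A673 100 nM replicate 2, either TC32 DMSO array or TC32 100 nM replicate 1, and those other than KIAA1671 also without A673 100 nM replicate 1 (adjusted p = 0.0502 to 0.273).

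Large housekeeping families held no called difference with arrays centred. Cytoplasmic ribosomal protein genes rose relative to the array medians in 59 of 65 tested members in TC32 and in 62 in A673, by medians of 0.29 and 0.39. Their difference was negative for 61 of 65, with a median of -0.10 and 0 called by limma (3 at an unadjusted p under 0.05), and RPS3A had the lowest, -0.58 (adjusted p = 0.0766). Oxidative phosphorylation subunits rose in 31 of 64 members in TC32 and in 47 in A673, with a median difference of -0.10, 0 called (3 at an unadjusted p under 0.05), and SDHA lowest at -0.59 (adjusted p = 0.125). These medians were 0.02 and -0.03 after quantile normalisation and 0.31 and 0.31 as deposited, so that their sign is set by the scaling. As deposited 46 of the 65 ribosomal protein genes and 38 of the 64 oxidative phosphorylation subunits were called higher. The brightest 2376 tested genes had a median difference of -0.07 with arrays centred.

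The remaining lists held few called members with arrays centred. Of 29 heat shock genes CCT6A, a chaperonin subunit, was called lower (-0.69), and of 21 interferon response genes TAP1, the peptide transporter of antigen presentation, was called lower (-0.88), with list medians of -0.13 and -0.18. Of 32 genes of glycolysis and hypoxia, PFKFB3, which makes the glycolytic activator fructose 2,6-bisphosphate, was called higher (0.88), having risen by 1.46 in TC32 and by 0.58 in A673. Of 8 tested small nucleolar RNAs (48 kept), SNORA3B (-0.87) and SNORA33 (-0.82) were called lower. SNORA3B rose in both lines, by 0.83 in TC32 and by 1.70 in A673. Of 273 tested ZNF genes, ZNF85 and ZNF195 (0.69) were called higher and ZNF429 (-1.07, with a group mean under 6) and ZNF114 (-0.94, likewise) lower, while 124 fell in TC32 and 117 in A673. Of 16 tested replication-dependent histones, H1-3 was called higher and H2AC11 lower, and 9 rose in each line.

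None of the tested members was called by limma in the lists of apoptosis (26), unfolded protein and integrated stress response (35), NF-kB (10), Hippo, Wnt and TGF-beta targets (26), BMP signalling (22), insulin and PI3-kinase (29), cholesterol synthesis (21), polyamine metabolism (13), SWI/SNF and CHD remodellers (33), the MYC network (11) and small nucleolar RNA host genes (7). At an unadjusted p under 0.05 these lists held between 0 members (NF-kB) and 6 members (apoptosis, unfolded protein response, and insulin and PI3-kinase). Over all tested genes 0.663% were called higher and 1.41% lower, so that lists of this size would hold few calls. These counts are with arrays centred. As deposited, between 2 (NF-kB) and 21 (SWI/SNF and CHD remodellers) members of each list were called higher and 0 lower. With arrays centred on the tested genes, BMP signalling had 2 members called higher and the unfolded protein list 2 called lower. The calls of CCT6A, TAP1, PFKFB3, SNORA3B, SNORA33, ZNF195, ZNF429, ZNF114 and SNAP25 each ended without either TC32 DMSO array, without 1 or both A673 100 nM arrays and, apart from PFKFB3 and ZNF114, without 1 or both TC32 100 nM arrays (adjusted p = 0.0519 to 0.255). As deposited, the calls of CCT6A, SNORA3B, SNORA33, ZNF429 and ZNF114 ended too (adjusted p = 0.053, 0.0646, 0.108, 0.0552 and 0.0758).

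Some further calls with an adjusted p near the threshold ended under other fits. With no intensity trend those of EPHA2, RRM2, HEXIM1, ELK3, CD44, PAPPA, CCT6A, KMT2A and SNORA33 ended (adjusted p = 0.054 to 0.0805). With no filter on signal those of EPHA2, CCNT1, CD44, KMT2A, SNORA33, ZNF195 and SNAP25 ended (adjusted p = 0.0501 to 0.0621). With arrays centred on the tested genes those of ZNF85, CCNT1, SNAP25 and NR2F1 ended (adjusted p = 0.0563 to 0.0767), and after quantile normalisation that of DGKG (adjusted p = 0.0712). JUN, RPS3A, SDHA and INCENP, not called above, were called after quantile normalisation (apart from RPS3A), with the replicate number as a block, and in 1 or more other fits for RPS3A, SDHA and INCENP (adjusted p = 0.000302 to 0.0493).

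At 500 nM the order of the lines was kept for some of these genes and not for others. The 500 nM values were set against the same DMSO arrays, so they are given side by side and were not tested against those at 100 nM. All are changes with arrays centred. Array medians were 5.742 and 5.68 in TC32 at 500 nM, against 6.536 and 6.471 with DMSO. In A673 they were 6.596 and 6.13 at 500 nM, unlike each other, against 7.319 and 7.071 with DMSO. As deposited, the changes lie lower than these, by more at 500 nM than at 100 nM, so the order of the doses can turn. FLI1 had a change of -2.51 at 100 nM and -2.53 at 500 nM in TC32, and of -0.82 and -1.83 in A673. In TC32 at 500 nM the mean levels of FLI1, CCNE2 and CCNE1 were -0.053, 0.0005 and -0.692 relative to the array medians. As deposited these lie under the signal limit of 6, so that further falls there could hardly have been measured. CCNE2 had -0.95 and -2.30 in TC32, and -0.01 and -0.67 in A673. For CCNE1 the changes were -0.54 and -1.86 in TC32, and 0.39 and -0.23 in A673. EGR1 had 0.82 and 3.81 in TC32, and -0.14 and 1.97 in A673. In A673, FLI1 and CCNE2 were thus further below DMSO at 500 nM than at 100 nM, and EGR1 was above DMSO at 500 nM alone.

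The p53 target SESN1 had 1.00 at 100 nM and -0.15 at 500 nM in TC32, and 0.05 and -0.72 in A673. MDM2 had 0.64 and -1.16 in TC32, and -0.11 and -0.93 in A673, so that neither was above DMSO at 500 nM. GADD45A, by contrast, had 1.58 and 3.14 in TC32, and 0.86 and 1.58 in A673. HOXB6 had 1.49 and 0.06 in TC32, and 0.35 and -0.01 in A673. FIP1L1 had 1.37 and -1.01 in TC32, and 0.23 and -0.96 in A673. PRRX1 had -1.47 and -1.20 in TC32, and BRD3 had -1.66 and -1.39 in TC32 and -0.54 and -0.41 in A673. With arrays centred these values lay close together at the 2 doses, and their order by dose depends on the scaling.

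**Figure D5:**
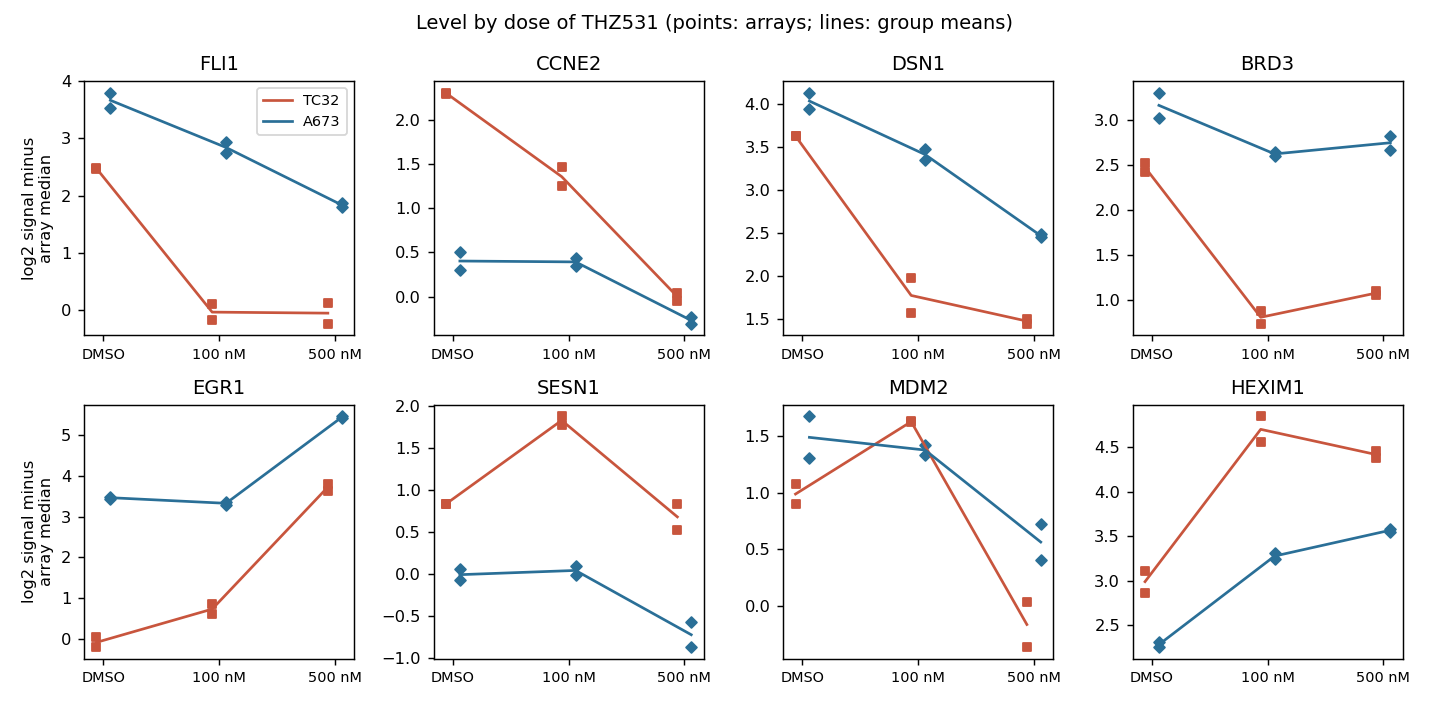
Level of 8 genes (vertical axis, log2 signal minus the array median) with DMSO, 100 nM and 500 nM THZ531 (equally spaced categories) in TC32 (red squares) and A673 (blue diamonds). Points are arrays and lines join group means. FLI1 in TC32 is near 0 at both doses, where its deposited signal is close to or under the limit of 6. SESN1 and MDM2 in TC32 are highest at 100 nM, and EGR1 is highest at 500 nM in both lines.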

How the data were processed

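Biotin-labelled total RNA from TC32 and A673 cells was measured on arrays, with 2 per group. The deposited values are log2 signals of 49395 probe sets. The authors' normalisation is not given in the sources used here, and the submitters' processing notes name MAS5, GRCh37 and hg19. An ERCC control mix was added, per the labels' protocols, and whether arrays were scaled to it is not known. The DMSO labels also carry a dose of 100 nM, read as not applying.

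Probe sets with 1 gene (44994) and 3 decimals were used. The 2829 entries with 2 decimals were left out, as were 116 genes that shared values with another, which left 16913. Symbols were updated through Entrez IDs for 16899 genes. Each array was centred on its median over these genes, and genes with a DMSO mean of at least 6 in both lines were tested (9505). The 8 arrays were modelled by their 4 group means in limma (version 3.58.1, R 4.3.3), with an intensity trend. Tests were two-sided, and calls needed a p under 0.05 after Benjamini-Hochberg adjustment over the tested genes. The residual degrees of freedom were 4, the prior degrees of freedom 12.97 and the median residual SD 0.115. Tables were made with Python 3.11.15 and pandas 2.3.3. The number of arrays limits the precision, and since nothing says how separate the replicate cultures were, the p-values cover only their spread, which may be technical.

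Named genes were the 12 highest and 12 lowest called differences with all group means at least 6 and separate pairwise changes, the 3 highest and 3 lowest with a group mean under 6, the 5 highest and 5 lowest with opposite calls in the lines, the called or extreme members of each list, and CDK12, CDK13, CCNK, FLI1, EWSR1 and MYC. The members, lists and rules were chosen with earlier results of these data known. Alternatives were other scalings, filters, variance models, all 12 arrays, a replicate block and leaving out each array. The labels do not say whether replicate numbers pair the arrays, and correlations of same-numbered deviations were from -0.13 to 0.43. On simulated data with 9505 genes, the model recovered 77 of 100 differences of 1 and 98 of 100 of 2 on the log2 scale, with 11 false calls. The simulated noise was normal, with the SDs shuffled across genes, the same spread in every group and no offset between arrays. These figures therefore need not hold for the arrays used here.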

Additional observations from a re-analysis of the deposited data

Results flagged for a closer look

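The change at 100 nM differed between the lines, by a test of the difference itself, for 63 genes that lay higher in TC32 and 134 that lay lower. The genes of these sets that are named above are given here with their difference, TC32 minus A673, on the log2 scale. Genes with a deposited group mean under 6 stand apart, in the order of the alphabet, since their fitted values give no ranking.

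Above 0 lay PHF20L1 (1.57), SCG2 (1.37), OSMR (1.35), H1-3 (1.16), FIP1L1 (1.14), HOXB6 (1.14), PRPF38B (0.96), EGR1 (0.95), SESN1 (0.95), TNFRSF10D (0.94), KMT5B (0.93) and PCDH17 (0.91). Closer to 0, but still called, were PFKFB3 (0.88), NOC2L (0.81), IRX3 (0.80), MDM2 (0.75), BAZ1A (0.75), SNAP25 (0.74), CCNT1 (0.73), RBBP6 (0.73), SOX6 (0.73), HEXIM1 (0.72), GADD45A (0.71), IER5 (0.71), EPHA2 (0.70), ZNF195 (0.69) and KMT2A (0.64). With a group mean under 6, the higher genes were CBLB (1.21), DGKG (0.94), NR2F1 (0.85) and ZNF85 (1.02).

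Below 0 lay FLI1 (-1.69), SLC25A24 (-1.29), SOBP (-1.24), DSN1 (-1.23), MGME1 (-1.22), APP (-1.21) and ESPL1 (-1.20). Less far below were NANOS1 (-1.20), BRD3 (-1.12), METTL23 (-1.11), OIP5 (-1.10), KCNE3 (-1.09), GINS1 (-0.96), CCNE2 (-0.94), CCNE1 (-0.93), DCLRE1A (-0.89) and TAP1 (-0.88). Nearest to 0 among the named lower genes were SNORA3B (-0.87), ELK3 (-0.86), E2F7 (-0.83), WDR5 (-0.83), SNORA33 (-0.82), MED29 (-0.81), ZC3H4 (-0.80), SNAI2 (-0.78), PRIM1 (-0.78), TNC (-0.76), CD44 (-0.70), CCT6A (-0.69), PAPPA (-0.64) and RRM2 (-0.63). With a group mean under 6, the lower genes were H2AC11 (-1.38), HOXC4 (-1.38), INTS2 (-1.27), KIAA1671 (-0.99), PAX7 (-1.11), PRRX1 (-1.49), RDH10 (-1.45), RGS3 (-1.55), ZNF114 (-0.94) and ZNF429 (-1.07).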

How the results depend on the processing

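The sign of each called difference named here was kept under every alternative run, while the number of calls was not. Without 1 array this sign could not turn, since every TC32 change of these genes lay beyond every A673 change. On the values as deposited 4628 genes had a higher difference in TC32 and 73 a lower one, against 63 and 134 with arrays centred, since the median difference was then 0.4. All 63 and 69 of the 134 were shared. Within the lines, 1192 genes rose and 3353 fell in TC32 as deposited, and 174 rose and 7824 fell in A673. With arrays centred on the tested genes the difference was higher for 171 and lower for 311, and 3474 genes rose in A673. After quantile normalisation the difference was higher for 255 and lower for 367. With no filter on signal 3694 genes rose in A673. With the replicate number as a block 141 differences were higher and 276 lower, including all 63 and all 134 called without it, and no other call named here was lost. The labels do not say whether arrays of the same number share a source, so what this block stands for is not known. The counts with all 12 arrays, a DMSO mean of at least 7, all 4 group means at least 6, no intensity trend or robust variances stayed within 1.5 times those above, at 51 to 69 higher and 97 to 168 lower. Leaving out each array in turn gave 5 to 278 higher and 11 to 787 lower differences, 1437 to 3229 rises and 1619 to 2482 falls in TC32, and 998 to 2772 rises and 1236 to 2071 falls in A673. The cause was not tested. Signs turned for 4 genes that were not called. CCNK was 0.335 and BAX 0.115 as deposited. EWSR1 was -0.066 without A673 DMSO replicate 2, -0.04 without A673 100 nM replicate 1, -0.014 without TC32 DMSO replicate 2 and -0.135 without TC32 100 nM replicate 2, with a range of -0.135 to 0.151 over the 8 arrays. MYC was -0.143 without A673 DMSO replicate 2 and -0.006 without TC32 100 nM replicate 2, with a range of -0.143 to 0.182. Signals near a log2 of 6 limit what a further fall could show.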
